A study of Rattus norvegicus with 9 samples.

Results

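The insulin-like growth factor (IGF) system of the rat bladder was examined through 10 genes, namely the ligands Igf1 and Igf2, the receptors Igf1r and Igf2r, and the binding proteins Igfbp2 to Igfbp7. The genes were chosen by name, through the accession that the array file gives to each probe. A total of 12 probes matched them, and they are 10 of the 15168 genes with a named probe. Of the 10 genes, 8 entered the fit over 11049 genes. Igf2r and Igfbp4 had lost too many spots to quality flags and were fitted only with flagged spots kept, over 11638 genes.

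Gene expression was measured in bladder RNA from female rats on 9 single-colour arrays, 3 for each of 3 groups at 3 weeks. The titles name the groups pBOO + tolterodine (here tolterodine for short), pBOO and sham. Partial bladder outlet obstruction (pBOO) was made in anaesthetised rats by ligation of the proximal urethra with a 1 mm catheter in place. Tolterodine, given to obstructed rats, is a drug that blocks muscarinic acetylcholine receptors, and sham rats were operated on without the tie. The labels give no strain, age or tolterodine dose. The labels mention 5 specimens per group and do not say whether an array carries 1 animal or a pool, so all p-values measure the spread between these arrays. The treatment protocol and the sample codes use the same letters for obstruction and sham, but the opposite way round. The titles were followed, and exchanging these groups would turn the sign of pBOO minus sham and would exchange both tolterodine comparisons.

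Igf1 and Igf2 are secreted peptides that signal through the tyrosine kinase receptor encoded by Igf1r. The receptor passes the signal through insulin receptor substrates to phosphoinositide 3-kinase and Akt, and it promotes growth and survival in muscle and many other tissues. The Igf2r product binds Igf2 without such a kinase and carries it to lysosomes. The secreted binding proteins hold IGFs in the extracellular space, and proteases that cut them release the ligand. The Igfbp7 product binds IGFs only weakly.

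The promoter windows of both ligands are shown because the ligands moved in opposite directions below. They are taken from RefSeq (rat assembly GRCr8) and run 300 bases, 5′ to 3′ on the strand of the gene, of which the last 50 follow the annotated start. Igf2 has 2 annotated starts on the minus strand of chromosome 1, at chr1:207253931-207254230 and chr1:207250426-207250725. The Igf1 window lies on the plus strand at chr7:24172282-24172581. Capitals mark matches, on either strand, to 3 motifs. The core promoter element TATAAA was searched as the TATA box. The letters GGGCGG were searched as the GC box, which Sp1-type factors bind. The CArG box is the element bound by serum response factor.
Igf2, upstream start: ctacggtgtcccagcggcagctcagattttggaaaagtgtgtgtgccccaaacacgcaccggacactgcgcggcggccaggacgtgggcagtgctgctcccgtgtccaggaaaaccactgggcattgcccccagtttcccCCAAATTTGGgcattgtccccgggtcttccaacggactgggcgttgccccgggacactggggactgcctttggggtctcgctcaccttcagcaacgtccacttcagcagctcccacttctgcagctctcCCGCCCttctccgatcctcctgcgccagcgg
Igf2, downstream start: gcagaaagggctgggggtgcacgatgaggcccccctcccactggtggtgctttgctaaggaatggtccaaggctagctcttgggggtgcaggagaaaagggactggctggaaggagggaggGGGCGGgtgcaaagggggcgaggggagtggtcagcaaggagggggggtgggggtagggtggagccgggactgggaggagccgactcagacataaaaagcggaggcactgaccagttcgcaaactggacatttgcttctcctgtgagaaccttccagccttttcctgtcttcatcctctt
Igf1: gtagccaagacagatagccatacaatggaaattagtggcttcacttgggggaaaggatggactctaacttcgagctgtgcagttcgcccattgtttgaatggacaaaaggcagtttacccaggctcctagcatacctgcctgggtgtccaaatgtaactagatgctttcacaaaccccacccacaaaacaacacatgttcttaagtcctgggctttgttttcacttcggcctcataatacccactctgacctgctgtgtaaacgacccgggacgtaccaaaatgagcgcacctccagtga

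The upstream Igf2 window held 1 CArG box, which began 110 bases before the annotated start, and 1 GC box that did not overlap it. The downstream Igf2 window held 1 GC box, and the Igf1 window held none of these motifs. Among 33469 windows of the same length in the RefSeq table, 1.64% held a CArG box, 33.1% a GC box and 14.2% a TATA box. All 10 genes had a window, 11 in all. A GC box was also found for Igf1r, Igf2r, Igfbp2 and Igfbp7, a TATA box for Igfbp4, and none of the motifs for Igfbp3, Igfbp5 and Igfbp6. In the same assembly Igfbp2 and Igfbp5 are neighbouring genes on chromosome 9. A match is a description of the letters in the window, and binding was not measured.

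All levels are log2 intensities relative to the 75th percentile of the same array. That percentile was between 523 and 1441 intensity units. On each array 72.1% to 80.1% of spots exceeded background clearly by the scanner software's call, and 0 spots were saturated. The labels name no slide. Arrays that share a scan start time in the file headers were taken to lie on the same slide, which gave 3 slides. Slide 1 held tolterodine arrays 1 and 2 with sham arrays 2 and 3, slide 2 held all pBOO arrays with sham array 1, and slide 3 held tolterodine array 3. Tolterodine and pBOO therefore never shared a slide, and slide and treatment cannot be told apart in that comparison except through the sham arrays. The main fit holds no slide term, so its p-values do not allow for likeness between arrays of the same slide. Where slide is fitted as a fixed block below, both comparisons that involve pBOO run through sham array 1, the only sham array on slide 2. All 11 listed smooth muscle markers and all 13 urothelial markers with a probe were well above background on at least 1 array.

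In pBOO bladders, Igf2, Igf1r, Igfbp5 and Igfbp6 rose and Igf1 fell against sham. Thus 4 of 8 tested genes were higher, where 20.8% of all tested genes were higher, and 1 was lower, where 21.7% were lower. The 4 include Igfbp5, which passed the filter on dim probes without a sham array well above background. The genes were chosen with earlier results of these data known, so the shares stand beside the counts without a test. In obstructed bladders given tolterodine, Igf2, Igfbp3 and Igfbp5 fell and Igf1 rose against pBOO. Here 3 of 8 were lower, against 15.3% of all genes, and 1 was higher, against 26.0%. Set against sham, the tolterodine bladders had more Igf1 and Igfbp6 RNA, 2 of 8 higher against 17.8% of all genes and 0 lower against 6.59%, and 0 were lower at an unadjusted p under 0.05 either. A gene was called changed at a Benjamini-Hochberg adjusted p under 0.05 in limma, over all genes tested.

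With flagged spots kept, all 10 genes could be counted. In pBOO against sham 5 were higher (20.5% of all genes) and 1 lower (22.9%). In tolterodine against pBOO 2 were higher (26.6%) and 3 lower (15.3%). In tolterodine against sham 2 were higher (17.5%) and 0 lower (6.55%). The median log2 difference of the 8 genes was 0.98 for pBOO minus sham, -0.29 for tolterodine minus pBOO and 0.40 for tolterodine minus sham, and the medians over all genes were -0.04, 0.11 and 0.09. The 3 comparisons share arrays pairwise, so each is given with its own values.

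**Figure D1:**
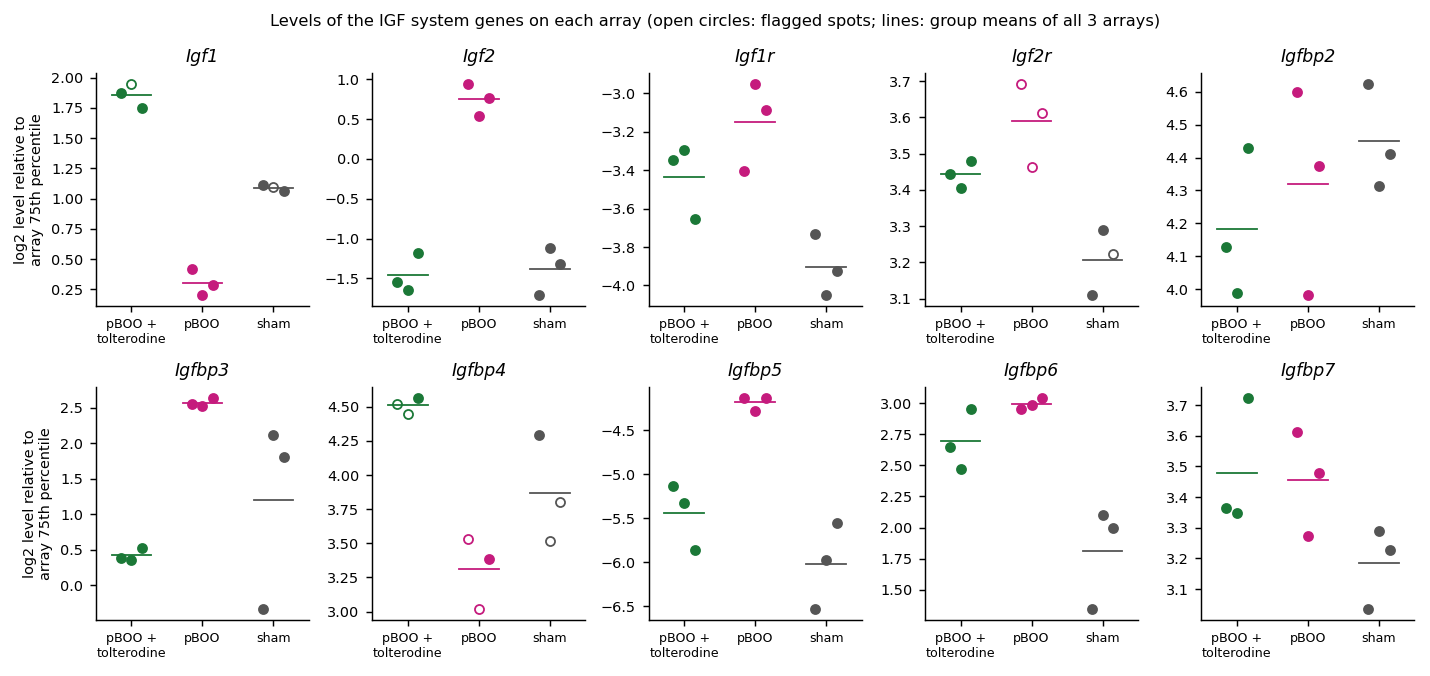
Log2 level of each of the 10 genes (y axis, relative to the array's 75th percentile; scales differ between panels) on the 3 arrays of the pBOO + tolterodine, pBOO and sham groups, with lines at the mean of all 3 arrays and open circles for flagged spots. Igf1 lay highest in the tolterodine group at 1.75 to 1.95, Igf2 was raised on the pBOO arrays alone at 0.54 to 0.94, and Igfbp3 on sham array 1 stood apart at -0.33.

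Igf2, the fetal growth ligand that stays low in most adult rodent tissues, had the smallest adjusted p of the 8 genes in both comparisons that involve pBOO. Its level was -1.54, -1.65 and -1.18 on the tolterodine arrays, 0.94, 0.54 and 0.77 on the pBOO arrays, and -1.71, -1.12 and -1.32 on the sham arrays. Every pBOO array was above every other array, and the tolterodine and sham arrays overlapped. Igf2 was 4.38-fold higher in pBOO than in sham (log2 difference 2.13, SE 0.19, adjusted p = 8.39e-05, limma). It was 4.62-fold lower with tolterodine than in pBOO (log2 difference -2.21, SE 0.19, adjusted p = 5.43e-05, limma). Between tolterodine and sham the difference was -0.08, with a 95% interval of -0.52 to 0.36. Within slide 2, where sham has 1 array, pBOO minus sham was 2.46 (adjusted p = 0.00677, limma). Within slide 1 tolterodine minus sham was -0.38 and passed the threshold (adjusted p = 0.0378, limma), unlike over all arrays.

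Igf1, the ligand that carries much of the growth hormone response, followed another order. The probe that stands for the gene read 1.87, 1.95 and 1.75 on the tolterodine arrays, 0.42, 0.20 and 0.29 on the pBOO arrays, and 1.11, 1.10 and 1.06 on the sham arrays. The groups did not overlap, with tolterodine highest and pBOO lowest. Tolterodine array 2 and sham array 2 carry a background flag for this spot and were left out of the fit, which leaves 2 arrays in each of these groups. Igf1 was 1.72-fold lower in pBOO than in sham (log2 difference -0.78, SE 0.13, adjusted p = 0.00333, limma). It was 2.85-fold higher with tolterodine than in pBOO (log2 difference 1.51, SE 0.13, adjusted p = 0.000189, limma). It was also 1.65-fold higher with tolterodine than in sham (log2 difference 0.72, SE 0.14, adjusted p = 0.0132, limma). The last call was lost without tolterodine array 1 (adjusted p = 0.0765, limma) and without sham array 3 (adjusted p = 0.0775, limma), and the difference was 0.81 within slide 1 (adjusted p = 0.0335, limma).

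A further Igf1 probe, flagged on 4 arrays, read 4.58, 4.60 and 4.88 on the tolterodine arrays, 3.10, 2.76 and 3.00 on the pBOO arrays, and 3.77, 4.01 and 3.98 on the sham arrays. The order of the groups was the same as for the first probe, again without overlap. In the fit over all probes with flagged spots kept, its differences were -0.97 for pBOO minus sham, 1.74 for tolterodine minus pBOO and 0.77 for tolterodine minus sham. All 3 passed the threshold (adjusted p = 0.00109, 5.19e-05 and 0.00682 in that order, limma).

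In bulk bladder RNA, a change in the number of cells of a type and a change in RNA per cell cannot be told apart. Each ligand moved in the same direction as a set of cell type markers in both comparisons that involve pBOO. The mean level of the 10 macrophage markers was between 1.22 and 1.62 on the tolterodine arrays, -0.55 and -0.51 on the pBOO arrays, and -0.02 and 0.27 on the sham arrays, the same order of groups as Igf1. Of these markers, 9 of 10 rose in tolterodine against pBOO, 7 fell in pBOO against sham, and 9 rose in tolterodine against sham. The mean level of 8 tested smooth muscle markers was between 0.60 and 0.71 on the tolterodine arrays, 1.88 and 2.35 on the pBOO arrays, and -0.03 and 0.31 on the sham arrays. Of these, 7 rose in pBOO against sham and 7 fell in tolterodine against pBOO, as Igf2 did. In tolterodine against sham 3 of the 8 rose and 0 fell, whereas Igf2 was not called there (log2 difference -0.08). The part of either cell type in the ligand results was not tested.

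**Figure D2:**
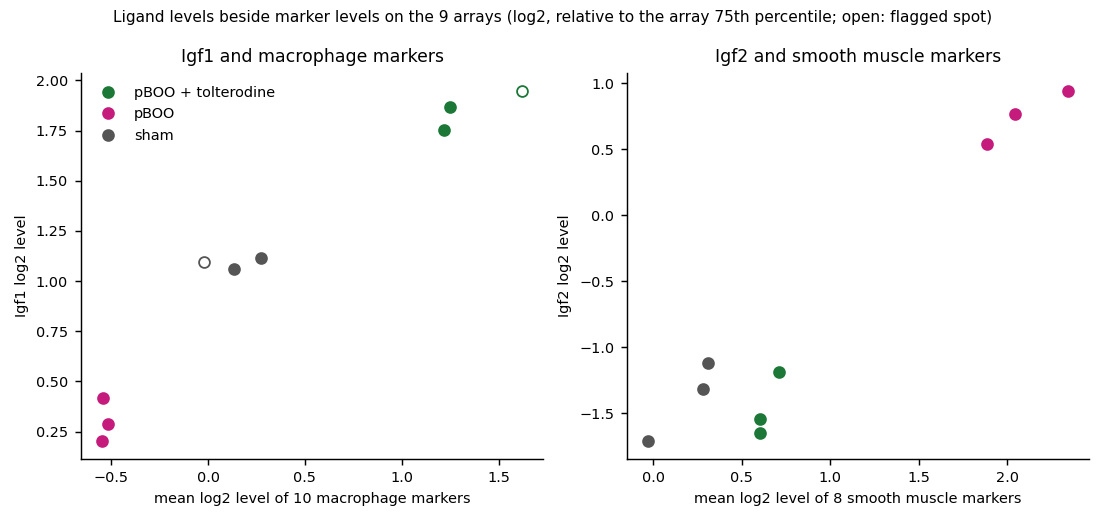
Left, Igf1 level (y axis, log2 relative to the array's 75th percentile) against the mean log2 level of 10 macrophage markers (x axis). Right, Igf2 level against the mean of 8 smooth muscle markers. Each point is 1 of the 9 arrays, and open circles are flagged spots. The pBOO arrays lie lowest on both axes at left and highest on both axes at right.

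The pattern of each ligand over the arrays was set against those of all genes with a value on every array, by the root mean square (RMS) difference of levels centred on each gene's mean. For Igf1, over the 7 arrays with an unflagged spot, the nearest were Ifi30 (RMS 0.0416 log2 units), Itgb2 (0.0679), Smpdl3a (0.0949), Htatip2 (0.122) and Abo (0.126). The median over 10106 genes was 0.66. Itgb2 encodes a leukocyte integrin subunit and Ifi30 a lysosomal thiol reductase of antigen-presenting cells. For Igf2, over 9 arrays, the nearest were Fbxl22 (0.136), Ccdc65 (0.144), Tnxa-ps1 (0.152), Slc6a17 (0.167) and Pde9a (0.172), with a median of 1.12. Fbxl22 encodes an F-box protein of heart and skeletal muscle, and Pde9a a phosphodiesterase that breaks down cyclic GMP.

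Igf1r, the signalling receptor, rose in pBOO. Its level, a mean of up to 10 repeated spots, was -3.30, -3.30 and -3.66 on the tolterodine arrays, -3.40, -2.95 and -3.09 on the pBOO arrays, and -3.73, -4.05 and -3.98 on the sham arrays after flagged spots were left out. All sham arrays lay below all other arrays, while tolterodine and pBOO overlapped. The pBOO minus sham difference was 0.77 (SE 0.16, adjusted p = 0.00558, limma), or 1.71-fold. It was not called with normexp background correction (0.23, adjusted p = 0.323, limma) or within slide 2 (0.58, adjusted p = 0.132, limma). Tolterodine minus pBOO was -0.27 (95% interval -0.64 to 0.10), and it was called with quantile normalization (-0.43, adjusted p = 0.0469, limma). Tolterodine minus sham was 0.50 and missed the threshold (adjusted p = 0.0547, limma), but passed it within slide 1 at 0.72 (adjusted p = 0.00379, limma). It also passed without tolterodine array 3 (adjusted p = 0.0319, limma), without pBOO array 1 (adjusted p = 0.0407, limma) and without sham array 1 (adjusted p = 0.03, limma).

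Igf2r, the clearance receptor for Igf2, was measured with flagged spots kept, since all 3 pBOO spots and the spot of sham array 3 carry a background flag. It read 3.44, 3.40 and 3.48 on the tolterodine arrays, 3.69, 3.46 and 3.61 on the pBOO arrays, and 3.11, 3.29 and 3.22 on the sham arrays. The sham arrays were lowest, and the pBOO and tolterodine arrays overlapped. The pBOO minus sham difference was 0.38 (SE 0.11, adjusted p = 0.019, limma), a 1.30-fold rise. This call was lost without pBOO array 1 (adjusted p = 0.0541, limma), without pBOO array 3 (adjusted p = 0.073, limma), without sham array 3 (adjusted p = 0.0615, limma) and within slide 2 (adjusted p = 0.0901, limma). With quantile normalization pBOO minus sham was 0.79 (adjusted p = 0.00073, limma), and tolterodine minus pBOO was called at -0.46 (adjusted p = 0.0104, limma). Without it, tolterodine minus pBOO was -0.15 (95% interval -0.39 to 0.10) and tolterodine minus sham 0.23 (95% interval -0.01 to 0.48).

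**Figure D3:**
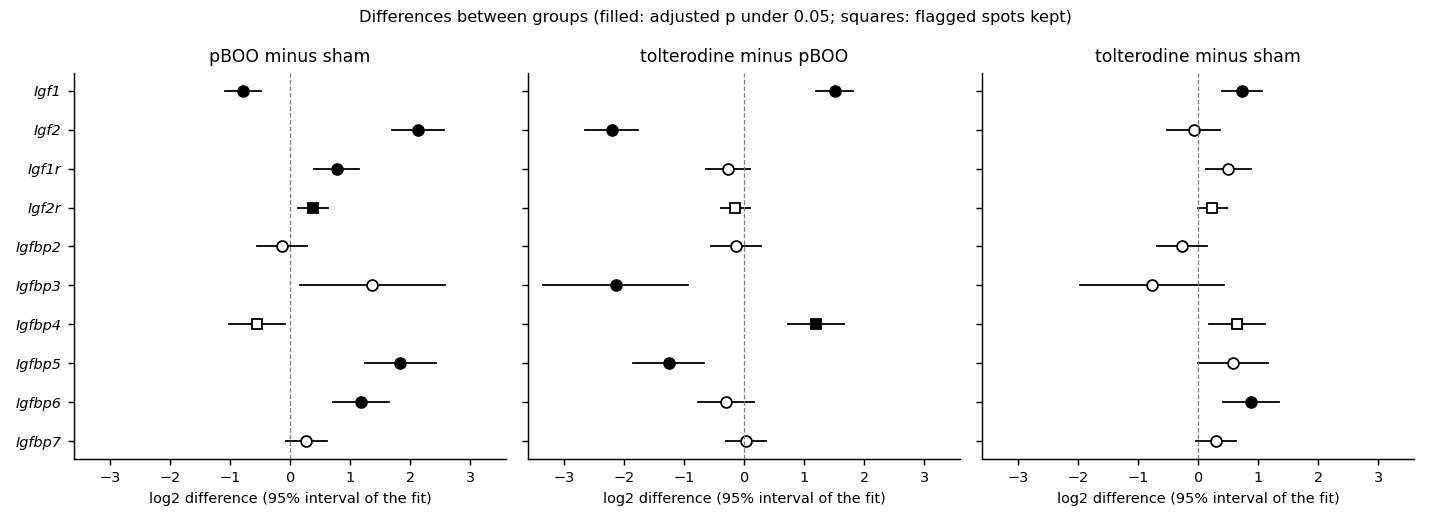
Log2 differences of the 10 genes (x axis) with 95% intervals of the limma fit, for pBOO minus sham, tolterodine minus pBOO and tolterodine minus sham. Filled symbols have an adjusted p under 0.05, and squares mark genes fitted with flagged spots kept. Igf1 and Igf2 lie on opposite sides of 0 in both panels that involve pBOO, and Igfbp5 against sham is a fitted value of a gene that was not well above background in sham.

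Igfbp3, the main carrier of IGFs in blood and a protein that many stromal cells secrete, varied most among the sham arrays. It read 0.39, 0.35 and 0.53 on the tolterodine arrays, 2.55, 2.52 and 2.64 on the pBOO arrays, and -0.33, 2.12 and 1.81 on the sham arrays. The pBOO arrays were the highest, and sham array 1 was the lowest of all 9 while the other sham arrays lay between the tolterodine and pBOO arrays. The sham SD was 1.34, the widest of any of the 10 genes. The adipocyte marker Adipoq, the only tested gene of 5 on that list, also stood apart on sham array 1. Its level was -2.15, -1.54 and -4.48 on the tolterodine arrays, -4.86, -8.13 and -6.47 on the pBOO arrays, and -5.08, 2.06 and 1.64 on the sham arrays, and its part in the Igfbp3 values was not tested. Igfbp3 was 4.42-fold lower with tolterodine than in pBOO (log2 difference -2.14, SE 0.53, adjusted p = 0.0116, limma). The difference was -3.57 with slide as a random block (adjusted p = 0.000891, limma). With slide as a fixed block it was -4.50, where pBOO is linked to the other groups only through sham array 1. The pBOO minus sham difference was 1.37 and was not called (SE 0.53, adjusted p = 0.065, limma). It was called with slide as a random block (2.36, adjusted p = 0.00205, limma). It was also called with quantile normalization (1.59, adjusted p = 0.0327, limma) and without sham array 2 (1.83, adjusted p = 0.0246, limma). Without sham array 1 it was 0.61 and was called (adjusted p = 0.00621, limma). It was 2.90 both within slide 2 and with slide as a fixed block. These are 1 estimate that rests on sham array 1, the only sham array on a slide with pBOO. Tolterodine minus sham was -0.77 (adjusted p = 0.314, limma), but -1.54 without sham array 1 (adjusted p = 0.000209, limma) and -1.59 within slide 1 (adjusted p = 0.0023, limma).

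Igfbp5, a binding protein that attaches to the extracellular matrix, was a dim probe. It read -5.13, -5.33 and -5.86 on the tolterodine arrays, -4.13, -4.28 and -4.13 on the pBOO arrays, and -6.53, -5.97 and -5.55 on the sham arrays. It was well above background on all 3 arrays of the tolterodine and pBOO groups and on 0 of 3 sham arrays, so against sham only a bound is given. In pBOO it was at least 2.73-fold higher than in sham. The adjusted p of 0.000753 (limma) belongs to the fitted difference, which uses sham values not well above background. The bound uses, on each sham array, the higher of the probe's own level and the lowest level of a probe called well above background. The probe passed the filter on dim probes through the tolterodine and pBOO arrays alone. The call against sham is therefore not independent of that filter. Tolterodine and sham overlapped, and their difference was not called (95% interval -0.01 to 1.17, adjusted p = 0.136, limma). That difference was called with slide as a random block (adjusted p = 0.0381, limma) or a fixed block (adjusted p = 0.0395, limma), and its adjusted p was 0.999 with normexp. Tolterodine minus pBOO was -1.26 (SE 0.26, adjusted p = 0.00515, limma), or 2.39-fold lower. With normexp background correction neither Igfbp5 call held, at 0.23 for pBOO minus sham (adjusted p = 0.454, limma) and -0.23 for tolterodine minus pBOO (adjusted p = 0.464, limma).

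The genes nearest in pattern to Igfbp5 over 9 arrays were Nell1 (RMS 0.185 log2 units), Cttnbp2 (0.207), Gata6 (0.22), Kcnmb1 (0.222) and Pgm2l1 (0.224), against a median of 0.90 over 10105 genes. Kcnmb1 encodes the beta subunit of the smooth muscle calcium-activated potassium channel, and Gata6 a transcription factor of smooth muscle and other lineages. The smooth muscle and pericyte markers moved with Igfbp5 as well. The mean of the 6 pericyte markers was between -0.76 and -0.72 on the tolterodine arrays, 0.27 and 0.45 on the pBOO arrays, and -1.17 and -0.74 on the sham arrays, with 5 of 6 higher in pBOO against sham and 4 of 6 lower in tolterodine against pBOO. Their part in the Igfbp5 and Igfbp3 values was not tested.

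Igfbp6, which binds Igf2 in preference to Igf1, was high in both obstructed groups. It read 2.65, 2.48 and 2.96 on the tolterodine arrays, 2.95, 2.99 and 3.05 on the pBOO arrays, and 1.34, 2.10 and 2.00 on the sham arrays. All sham arrays lay below all other arrays. It was 2.27-fold higher in pBOO than in sham (log2 difference 1.18, SE 0.21, adjusted p = 0.00223, limma) and 1.84-fold higher with tolterodine than in sham (log2 difference 0.88, SE 0.21, adjusted p = 0.0172, limma). Within slide 2 pBOO minus sham was 1.65 (adjusted p = 0.00569, limma), and within slide 1 tolterodine minus sham was 0.51 (adjusted p = 0.0148, limma). Tolterodine minus pBOO was -0.30 (95% interval -0.77 to 0.17) and was not called. That difference was called with quantile normalization (-0.54, adjusted p = 0.0475, limma) and with slide as a fixed block (-1.14, adjusted p = 0.0023, limma) or a random block (-0.77, adjusted p = 0.026, limma).

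The mean level of fibroblast markers was also higher in both obstructed groups than in sham. The mean of 10 tested fibroblast markers was between 0.50 and 1.09 on the tolterodine arrays, 1.17 and 1.26 on the pBOO arrays, and 0.20 and 0.30 on the sham arrays. Of these, 6 rose in pBOO against sham, and 7 rose and 1 fell in tolterodine against sham. In tolterodine against pBOO 2 rose and 3 fell. Their part in the Igfbp6 values was not tested.

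Igfbp4, which restrains IGF action until a protease cuts it, was measured with flagged spots kept, since 6 of its 9 spots carry a background flag. It read 4.52, 4.45 and 4.57 on the tolterodine arrays, 3.53, 3.02 and 3.39 on the pBOO arrays, and 4.29, 3.52 and 3.80 on the sham arrays. Every tolterodine array was above every other array, and pBOO and sham overlapped. Tolterodine minus pBOO was 1.20 (SE 0.21, adjusted p = 0.00203, limma), or 2.30-fold higher. The differences from sham missed the threshold, at -0.56 for pBOO minus sham (adjusted p = 0.0538, limma) and 0.64 for tolterodine minus sham (adjusted p = 0.0515, limma). The pBOO minus sham difference was -0.14 with quantile normalization (adjusted p = 0.62, limma) and -0.35 without sham array 1 (adjusted p = 0.122, limma). It was called without sham array 2, at -0.74 (adjusted p = 0.0224, limma). With slide as a random block both were called, at -0.84 (adjusted p = 0.00913, limma) and 0.74 (adjusted p = 0.0118, limma). Within slide 1 tolterodine minus sham was 0.82 and was called (adjusted p = 0.00716, limma), and without sham array 1 it was 0.85 (adjusted p = 0.00715, limma).

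Igfbp2 and Igfbp7 were not called in any comparison over all arrays. The probe that stands for Igfbp2, a binding protein found in many epithelia, read 4.13, 3.99 and 4.43 on the tolterodine arrays, 4.60, 3.98 and 4.37 on the pBOO arrays, and 4.62, 4.31 and 4.41 on the sham arrays. Its groups overlapped, and the 95% intervals of its differences ran from -0.55 to 0.29 for pBOO minus sham, -0.56 to 0.28 for tolterodine minus pBOO, and -0.69 to 0.15 for tolterodine minus sham. Within slide 1 the last difference was -0.30 and was called (adjusted p = 0.048, limma). A second Igfbp2 probe, flagged on 6 arrays, read 5.37, 5.10 and 5.58 on the tolterodine arrays, 5.57, 5.07 and 5.45 on the pBOO arrays, and 5.76, 5.50 and 5.48 on the sham arrays, also with overlap. Igfbp7, secreted by vessel walls and stroma, read 3.36, 3.35 and 3.72 on the tolterodine arrays, 3.61, 3.27 and 3.48 on the pBOO arrays, and 3.03, 3.29 and 3.23 on the sham arrays. Tolterodine and pBOO overlapped for Igfbp7, and so did pBOO and sham. Its pBOO minus sham difference was 0.27 (95% interval -0.06 to 0.61). With quantile normalization it was 0.69 and was called (adjusted p = 0.0034, limma).

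The counts of the gene lists that follow stand beside those over all genes, of which 20.8% were higher and 21.7% lower in pBOO against sham, 26.0% higher and 15.3% lower in tolterodine against pBOO, and 17.8% higher and 6.59% lower in tolterodine against sham. Among close relatives of the family, 4 of 7 listed genes were tested (Insr, Ins1, Igfbp1 and Igfbpl1), and 0 were called in either comparison with sham by limma. At an unadjusted p under 0.05, 1 was higher in pBOO than in sham and 0 differed between tolterodine and sham. Without sham array 1, 1 was called lower in pBOO and 2 lower with tolterodine against sham. All list counts without sham array 1, here and below, were added after seeing the data. With slide as a random block 1 was called higher in pBOO, and 1 higher and 1 lower with tolterodine. In tolterodine against pBOO, Ins1, an insulin gene, was higher by 0.62 (adjusted p = 0.0264, limma). Igfbpl1, a secreted IGF binding protein-like gene, was well above background on 3 of 3 pBOO arrays and 0 of 3 tolterodine arrays. It was at least 2.42-fold lower with tolterodine, and the adjusted p of 0.0101 (limma) belongs to the fitted difference. Igfbpl1 was well above background on 1 of 3 sham arrays, so it passed the filter on dim probes through the pBOO group, where it is high. The call is not independent of that filter.

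Of 13 listed genes that cut IGF binding proteins or restrain the enzymes that do, 6 were tested. In pBOO against sham 3 rose and 2 fell. Mmp7, an epithelial metalloproteinase, had a mean level of -4.75 in pBOO and 2.17 in sham, a difference of -6.92 (SE 0.26, adjusted p = 1.65e-06, limma). Stc1, the secreted glycoprotein stanniocalcin, was higher by 1.59 (adjusted p = 0.000225, limma), and the serine protease gene Htra1 was higher by 0.76 (adjusted p = 0.0109, limma). In tolterodine against pBOO 3 rose and 1 fell. Mmp7 had a mean of 1.66 with tolterodine and -4.75 in pBOO, a difference of 6.41 (SE 0.26, adjusted p = 1.54e-06, limma), and the plasminogen activator gene Plau was higher by 1.33 (adjusted p = 0.0144, limma). Stc1 differed by -1.66 (adjusted p = 0.000153, limma) and C1s, a complement protease that can cut Igfbp5 protein in humans, by 0.54 (adjusted p = 0.0154, limma). In tolterodine against sham 2 rose (C1s by 0.98 and Htra1 by 0.67) and 1 fell. Without sham array 1 these counts were 1 and 1 in tolterodine against sham, and 2 and 2 in pBOO against sham. The mean of 9 tested urothelial markers was between 2.03 and 2.35 on the tolterodine arrays, 2.01 and 2.61 on the pBOO arrays, and 2.85 and 3.53 on the sham arrays, and its part in the Mmp7 values was not tested. The medians of the protease list were -0.15, 0.51 and 0.26 in these 3 comparisons, beside -0.04, 0.11 and 0.09 over all genes.

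Genes of the pathway downstream of Igf1r were higher in pBOO. Of 26 tested genes, 10 rose and 0 fell in pBOO against sham (12 and 1 at an unadjusted p under 0.05 in limma), and their median difference was 0.32 where that of all genes was -0.04. The change was greatest for Pik3r1, a regulatory subunit of phosphoinositide 3-kinase, at 2.01 (adjusted p = 0.000713, limma). Flagged spots left 2 arrays in each of the pBOO, sham and tolterodine groups for Pik3r1. The receptor substrate Irs1 rose by 1.37 (adjusted p = 0.000588, limma), and it was well above background on 1 of 3 sham arrays. Pik3ca, a catalytic subunit of the same kinase, rose by 1.06 (adjusted p = 0.000321, limma). The transcription factor gene Foxo4, whose product Akt holds back, rose by 1.05 (adjusted p = 0.000166, limma). Without sham array 1, 13 rose and 1 fell.

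In tolterodine against pBOO, 8 of the 26 fell and 1 rose, with a median of -0.23 beside 0.11 over all genes. The receptor substrate Irs2 fell by 1.03 on the log2 scale, Pik3ca fell by 0.83 and the kinase gene Mtor fell by 0.58 (adjusted p = 0.00778, 0.00117 and 0.0298, limma). The adaptor gene Shc1 rose by 0.59 (adjusted p = 0.0111, limma). Against sham, 8 rose and 2 fell with tolterodine, with a median of 0.18 beside 0.09 over all genes. Pik3r1 was higher by 1.69, Irs1 by 1.40, Shc1 by 1.20 and the kinase gene Akt2 by 0.99 (adjusted p = 0.00329, 0.00153, 0.00105 and 0.0029, limma). With slide as a random block the counts in tolterodine against pBOO were 4 higher and 6 lower.

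**Figure D4:**
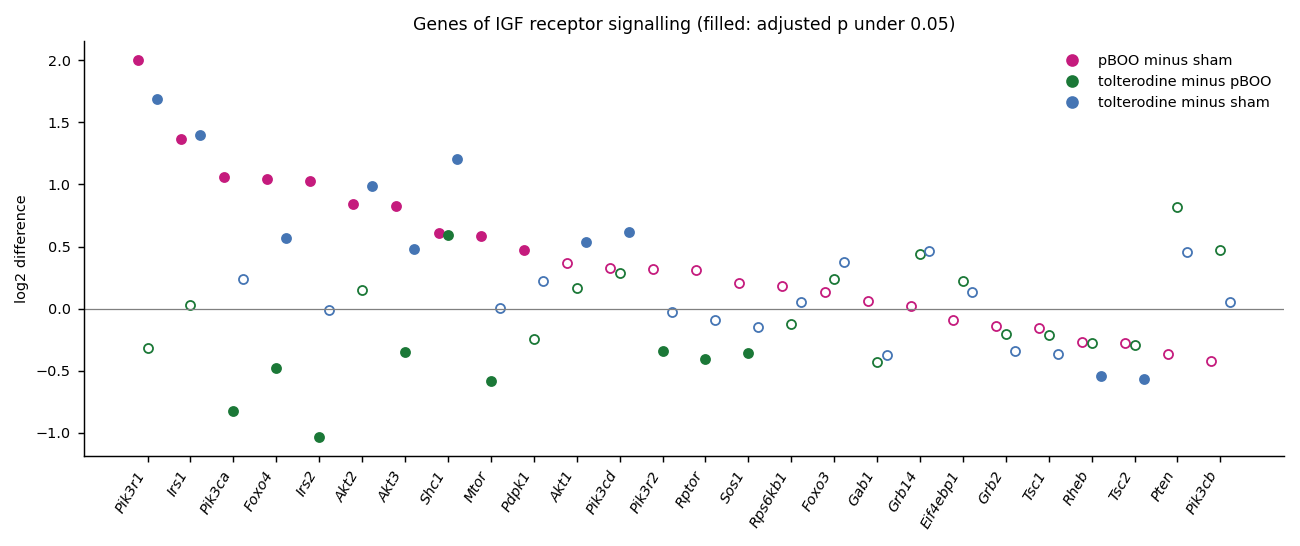
Log2 differences (y axis) of the 26 tested genes of IGF receptor signalling (x axis, ordered by pBOO minus sham) in the 3 comparisons, with filled circles for an adjusted p under 0.05. The 10 filled pBOO minus sham points all lie above 0, and 8 of the 9 filled tolterodine minus pBOO points lie below it.

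Igf2 belongs to a set of imprinted genes that are coexpressed during growth in mice, of which 8 of 12 listed were tested. In pBOO against sham 3 rose (Plagl1 by 1.08, Ndn by 0.59 and Sgce by 0.50) and 0 fell. H19, the non-coding gene that shares an imprinted domain with Igf2, was not called in pBOO against sham (log2 difference -0.08). Its mean level was 0.41 with tolterodine, -0.96 in pBOO and -0.88 in sham. It was higher with tolterodine than in pBOO by 1.37 (SE 0.18, adjusted p = 0.000503, limma) and than in sham by 1.29 (SE 0.18, adjusted p = 0.00193, limma). Plagl1, a zinc finger factor gene known to act on Igf2 and H19 in mice, was higher with tolterodine by 0.62 against pBOO and by 1.70 against sham. Slc38a4, an amino acid transporter gene, was higher by 1.31 and 1.63 in the same comparisons. Sgce, which encodes a sarcoglycan of the muscle cell membrane, differed by -0.52 between tolterodine and pBOO. In all, 3 rose and 1 fell against pBOO, and 3 rose and 0 fell against sham, with 0 lower at an unadjusted p under 0.05 in either comparison with sham. The medians were 0.41, 0.27 and 0.49 for pBOO minus sham, tolterodine minus pBOO and tolterodine minus sham.

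All 8 listed genes of the growth hormone axis, which drives Igf1 in liver and other tissues, were tested. In pBOO against sham 2 rose (Socs2 by 0.74 and Jak2 by 0.34) and 1 fell (Socs3, a cytokine signalling inhibitor gene, log2 difference -1.15). In tolterodine against pBOO Socs3 rose by 1.59 (adjusted p = 8.13e-05, limma) and Stat5a fell, with a log2 difference of -0.38. In tolterodine against sham 1 rose (Socs2 by 0.90) and 0 fell (3 and 1 at an unadjusted p under 0.05 in limma). With slide as a random block 4 rose and 1 fell in that comparison, and without sham array 1, 2 rose and 1 fell. In pBOO against sham 2 rose and 2 fell without sham array 1. The receptor gene Ghr was not called in any of the comparisons. The medians were 0.00, 0.14 and 0.13 in the same order.

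The CCN genes encode matrix proteins with a domain like that of the IGF binding proteins, and 5 of 6 were tested. All 5 rose in tolterodine against pBOO, with a median of 1.14. Ccn5 had a mean of -0.17 with tolterodine and -3.74 in pBOO, a difference of 3.57 (SE 0.27, adjusted p = 2.51e-05, limma), and Ccn2, the connective tissue growth factor, had 2.27 and 0.17, a difference of 2.10 (SE 0.24, adjusted p = 0.000233, limma). Ccn4 was higher by 1.14 and Ccn3 by 0.98. In pBOO against sham 1 rose (Ccn3 by 0.76) and 2 fell (Ccn5 with a log2 difference of -2.30 and Ccn2 with -1.57), and the median was -0.14. In tolterodine against sham 4 rose (Ccn3 by 1.74, Ccn5 by 1.28, Ccn4 by 1.00 and Ccn1 by 0.37), and the median was 1.00. With slide as a random block 3 of the 5 rose against pBOO. The list of Igf2 mRNA binding proteins had 0 tested genes of 3.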

How the data were processed

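Bladder RNA was labelled with Cy3 and hybridised to 9 Agilent rat arrays. Per the file headers, signals were extracted with Feature Extraction 11.0.1.1, whereas the submitters' processing notes name version 9.1. The deposited processed signal is a spot intensity after background subtraction and detrending within the array, and the deposited median signal and median local background are raw intensities, per the file headers. The deposited quality flags are of another kind, with values of 0 or 1. The authors' own route to gene lists was not given in the sources used.

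The log2 processed signal of 42877 non-control spots was reduced by each array's 75th percentile. Non-uniform spots and population outliers, in the spot or its background, were left out, and repeated spots were averaged. Probe accessions were matched to RefSeq symbols (GRCr8), which gave 18005 of 30367 probes a single symbol. The brightest probe on average represented a gene, among probes well above background on at least 3 arrays with at least 2 unflagged arrays in each group. One limma fit (limma 3.58.1 in R 4.3.3) held 1 coefficient per group, with two-sided moderated tests and Benjamini-Hochberg adjustment over all genes at 0.05. Precision is limited by the 3 arrays per group, and the median residual SD was 0.214. The fit was tested on simulated data with independent noise on each array, so that test does not cover a slide effect. With slide as a random block, the correlation between arrays of a slide was 0.63.

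The 10 genes, the gene lists and the cell type markers were chosen with earlier results of these data known. Named genes are all 10 members, in each list and comparison up to 4 called genes with the largest change (for some lists fewer exist), the 5 nearest patterns for Igf1, Igf2 and Igfbp5, and uncalled genes where a list is small. One gene counted in the protease list is not reported here. Alternatives were quantile normalization, normexp (offset 50) on the median rather than the mean signal, which was not used here, no filter on dim probes, flagged spots kept, the mean of probes, slide and replicate blocks, within-slide fits and leaving out each array. Same-numbered arrays of different groups had correlations of their deviations between -0.08 and 0.18. The arrays were therefore not paired by number in the fit, but these values cannot exclude that animals were matched.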

Additional observations from a re-analysis of the deposited data

How the results depend on the processing

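Under the alternatives fixed for the 8 genes, 393 of 424 differences kept their side of the threshold and their direction, or changed sign while passing in neither case (13 differences). A further 6 lost the call, 25 gained one and 0 reversed. Leaving out an array of the group not compared changes the SE and not the difference, which stayed at 2.13 for Igf2 in pBOO minus sham. The totals therefore include alternatives whose direction was fixed in advance, and they are not counts of independent checks. For Igf2r and Igfbp4, whose alternatives were chosen after seeing the data, 83 of 100 kept it, 4 lost it and 13 gained it. The count of called genes in pBOO against sham was 5 and became 3 with normexp and 7 with quantile normalization, which also gave 6 against 4 in tolterodine against pBOO. In tolterodine against sham it was 2 and became 5 with slide as a fixed block, 5 with slide as a random block and 6 within slide 1. Leaving out 1 array at a time gave 1 to 4 in tolterodine against sham, 1 without tolterodine array 1 or sham array 3, 3 without pBOO array 1 or tolterodine array 3, and 4 without sham array 1. It gave 5 to 6 in pBOO against sham and 4 to 4 in tolterodine against pBOO. The replicate number as a block gave 5, 4 and 2 called genes for pBOO against sham, tolterodine against pBOO and tolterodine against sham, as without it.

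Over all genes, normexp gave 3026, 3000 and 961 calls in the same order, against 4693, 4564 and 2693, and its median for pBOO minus sham was -0.14, where it was -0.04 before. With normexp 39.0% of the pBOO against sham calls were higher in pBOO, where 48.9% were before. Quantile normalization brought the median of tolterodine minus pBOO to 0.01, where it was 0.11, and the share of calls that were higher with tolterodine to 52.6% against pBOO and 58.1% against sham, where it was 62.9% and 73.0%. Relative to the medians before and after, the directions of the called ligands and binding proteins were kept. In tolterodine against sham the calls over all genes were 4486 and 4289 with slide as a fixed and a random block, 5854 within slide 1, and 1412 to 3785 without 1 array. Within slide 2 there were 2859 calls in pBOO against sham. Dim signal limits Igfbp5 and Irs1 in sham, where they were well above background on 0 and 1 of 3 arrays.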

Other observations

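Neutrophil markers and cell division genes also separated the pBOO arrays from the other groups. The mean log2 level of 5 neutrophil markers was between -1.38 and -1.26 on the tolterodine arrays, -4.82 and -4.23 on the pBOO arrays, and -2.38 and -1.74 on the sham arrays. All 5 rose in tolterodine against pBOO, and 4 fell in pBOO against sham. Among them, Cxcr2 and Csf3r were well above background on 0 of 3 pBOO arrays, and Cxcr2 on 1 of 3 sham arrays. Cxcr2 therefore passed the filter on dim probes through the tolterodine group, where it is high. The mean of 7 cell division genes was between 0.38 and 0.47 on the tolterodine arrays, -1.85 and -1.43 on the pBOO arrays, and 0.02 and 0.74 on the sham arrays. All 7 rose in tolterodine against pBOO and all 7 fell in pBOO against sham, while 0 of 7 were called by limma in tolterodine against sham, also 0 at an unadjusted p under 0.05. Of 5 T cell markers, 4 rose in tolterodine against pBOO, where 26.0% of all genes were higher. In pBOO against sham 1 fell, which is near the 21.7% of all genes that were lower. Of 6 endothelial markers, 3 rose in pBOO against sham and 3 in tolterodine against sham, where 20.8% and 17.8% of all genes were higher. In tolterodine against pBOO 1 of them rose and 2 fell, beside 26.0% and 15.3% of all genes. The T cell gene Cd3e was well above background on 3 of 3 tolterodine arrays and on 0 of 3 in each other group. The endothelial gene Tek was so on 3 of 3 pBOO arrays and on 0 of 3 in each other group. Each passed the filter on dim probes through the group where it is high, so its calls are not independent of that filter.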
